A study of Mus musculus with 18 samples.

Results

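Amino acid transporters are the subject here, as 9 protein-coding mouse genes of 21883 in the annotation: Slc7a1, Slc7a3, Slc7a5, Slc7a11, Slc3a2, Slc38a2, Slc6a9, Slc1a4 and Slc1a5. They were chosen by name, with earlier results of these data known, and all 9 were found in the RefSeq gene table. For each gene, every peak in the annotated gene body and 50 kb on either side was collected. The samples were primary immature neurons from day 14 mouse embryos, grown for 2 days in vitro and either given 10 mM 2-deoxyglucose (2-DG) for 6 h or left untreated. No strain, sex or genotype is given in the sources used here. 2-DG is a glucose analogue that slows glycolysis and disturbs protein glycosylation. Chromatin immunoprecipitation with sequencing was used to find sites carrying ATF4, with 4 peak lists from 2-DG neurons and 4 from control neurons. The antibody field of the control samples reads none, and that of the 2-DG samples names the ATF4 antibody, while the series design names this antibody for both. A difference in antibody and a difference in ATF4 binding therefore cannot be told apart. Peak lists carry no expression values, so the labelled cell type could not be checked against its markers.

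ATF4 acts in the integrated stress response as a transcription factor. Its messenger RNA is translated more when the initiation factor eIF2 is phosphorylated, as happens when amino acids run short or when unfolded protein builds up in the endoplasmic reticulum. Genes for amino acid uptake, amino acid synthesis and transfer RNA charging are classic ATF4 targets, and ATF4 pairs with C/EBP-family proteins on composite sites near them. The series addresses which sites ATF4 occupies after 2-DG.

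The 2-DG lists held 15240, 7369, 6371 and 5856 peaks in replicates 1 to 4, and the control lists held 3461, 3784, 8202 and 6811. Sequencing depth behind each list is not known, and absence from a list says only that the authors' caller reported nothing there. The fold printed for a peak is the authors' enrichment of its summit over the local background. It was used to describe and rank peaks inside 1 list. A percentile is the share of the other peaks of the same list with a fold no higher.

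Peaks recurred at 8 of the 9 transporter genes after 2-DG. Merging the 8 lists gave 36 regions in the 9 windows, of which 16 were called in at least 3 of 4 2-DG lists (44.4%). Among all 35717 merged regions of the genome that share was 7.50%. Of the 16, 8 were in no control list (22.2% of the 36, beside 3.99% of all regions). A region called in all 4 2-DG lists lay in the window of Slc7a1, Slc7a3, Slc7a5, Slc7a11, Slc3a2, Slc38a2, Slc6a9 and Slc1a4, whereas 7.12% of all genes had one. The same 8 members had a region in at least 3 2-DG lists, beside 14.0% of all genes. Slc1a5 had neither. The reverse class, called in at least 3 control lists and no 2-DG list, held 0 of the 36 regions, beside 0.115% of all regions.

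Position decided which count a gene entered. A peak within 2000 bp of either end of the annotated gene was called for 4 members in each of the 4 2-DG lists, against 2, 0, 0 and 0 members in the control lists (4 ± 0 against 0.5 ± 1, SD, n = 4 each). The 4 genes were Slc7a1, Slc38a2, Slc6a9 and Slc1a4 in each 2-DG list, and 1.03% of all genes had such a peak in all 4. Over all genes, a gene-end peak was found in 3.54% ± 1.48 of genes per 2-DG list and 1.67% ± 0.354 per control list (SD, n = 4 each). Over the whole window, 9, 9, 8 and 8 members held a peak in the 2-DG lists, against 5, 2, 4 and 3 in the control lists. That window is wide, and 33.2% ± 11.3 of all genes held a peak in it per 2-DG list and 23.1% ± 8.61 per control list (SD, n = 4 each).

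Starts of transcription were tabulated for 6 of the 9 members in RefSeq's promoter table (GRCm38.p6, called mm10 in the labels). All 6 (Slc7a1, Slc7a11, Slc3a2, Slc38a2, Slc6a9 and Slc1a4) had a peak within 2000 bp of a tabulated start in each of the 4 2-DG lists, whereas 0.949% of 17491 genes with a start did. The control lists held 4, 0, 0 and 0 of the 6. In control replicates 1 to 4, 1.18%, 0.983%, 1.15% and 1.17% of all genes with a start had such a peak. A count of 0 of the 6 is near these shares. Windows around tabulated starts were chosen after the peak positions had been seen. Of the 6, Slc7a11 and Slc3a2 had no gene-end peak, because their annotated spans run past the tabulated start on both sides.

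**Figure D1:**
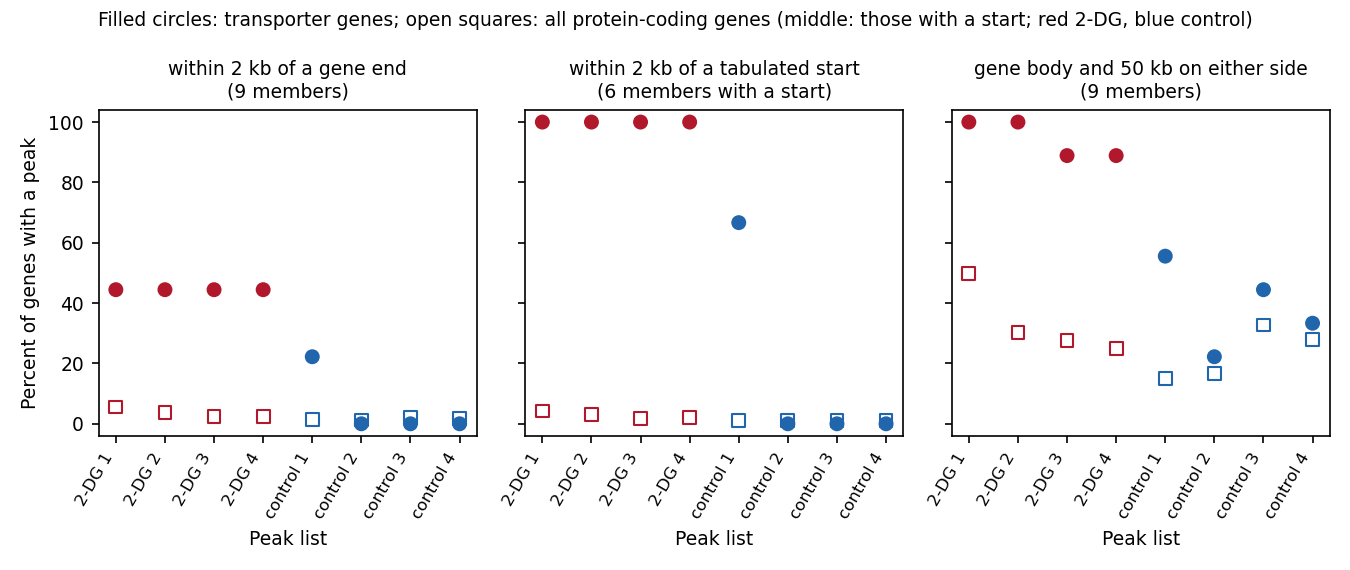
Percent of genes with a peak in each list (vertical axis) for 4 2-DG and 4 control lists (horizontal axis), by 3 windows; filled circles are the transporters and open squares all protein-coding genes, or those with a start in the middle panel. All 6 members with a start had a peak in every 2-DG list, and control replicate 1 held 4 of them while the other control lists held 0.

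The heavy chain gene Slc3a2 and its light chain partners gave peaks inside their genes. Slc3a2 encodes the glycoprotein that carries the light chains to the cell surface, and Slc7a5 and Slc7a11 encode 2 such light chains, one exchanging large neutral amino acids and the other importing cystine in exchange for glutamate.

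Slc3a2 spans chromosome 19, 8706882 to 8723369 (mm10), and its recurrent region lay at 8712744 to 8713669. Folds there were 67.7, 55.5, 19.6 and 24.6 in 2-DG replicates 1 to 4, and 4.00 in control replicate 1. Each 2-DG list called it at or above percentile 98.2 of its folds, control replicate 1 called it at percentile 41.9, and the other control lists did not call it. Summits of the 2-DG lists fell 865 to 890 bp downstream of the tabulated start, within 25 bp of each other.

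Slc7a11 spans chromosome 3, 50364936 to 50499087, and had 1 region in its whole window, at 50443115 to 50444212. Folds were 87.8, 72.2, 26.9 and 27.9 in 2-DG replicates 1 to 4, with ranks of 18, 20, 65 and 78. Control replicate 1 called a peak of fold 3.64 there, ranked 2645 of 3461 with a -log10 q of 1.39, the lowest -log10 q of that list, and the other control lists called none. Measured from the ends of the annotated gene this region is deep inside, with its highest summit 78.7 kb from one and 55.4 kb from the other, yet the 2-DG summits lay 41 to 60 bp upstream of the tabulated start.

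Promoter sequence of Slc7a11 and of Slc1a4 is shown because the 2-DG peaks cover these starts and both windows hold a C/EBP-ATF element. The search covered 9 tabulated promoters of the 6 members, each 250 bases before to 50 after a start, on both strands, for TGATGNAA (the core of the element), TGACGTCA (the cAMP response element) and TGACGNAA. Capitals mark each match, and both sequences run 5′ to 3′ on the gene's strand from 200 bases before the start, with 30 bases from the start on, as read from RefSeq (GRCm38.p6). Slc7a11 is at chr3:50443584-50443813, minus strand, and Slc1a4 at chr11:20332684-20332913, minus strand.
Slc7a11: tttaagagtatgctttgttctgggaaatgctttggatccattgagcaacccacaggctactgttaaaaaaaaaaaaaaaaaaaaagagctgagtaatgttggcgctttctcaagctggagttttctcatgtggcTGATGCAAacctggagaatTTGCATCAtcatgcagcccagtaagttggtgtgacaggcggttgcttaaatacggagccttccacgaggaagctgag
Slc1a4: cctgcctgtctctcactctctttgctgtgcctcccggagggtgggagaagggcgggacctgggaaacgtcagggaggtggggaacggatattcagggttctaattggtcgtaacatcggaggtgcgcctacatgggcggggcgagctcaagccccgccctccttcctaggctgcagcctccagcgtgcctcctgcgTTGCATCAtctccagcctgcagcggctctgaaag

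Slc7a11 holds 2 copies of TGATGNAA, one on each strand, beginning 66 and 47 bases before the start. The 4 2-DG summits lay 3 to 22 bp from the middle of the first and 1 to 16 bp from the middle of the second. Slc1a4 holds 1 copy, beginning 4 bases before the start and running across it, with 2-DG summits 47 to 91 bp from its middle. No match overlapped another, and the other 7 promoters of the members, as searched, held none of the 3 motifs. At Slc7a1, Slc38a2, Slc3a2 and Slc6a9 the 2-DG summits near a start lay at least 404, 533, 865 and 128 bp downstream. These summits are beyond the searched bases, so whether a motif lies under them was not tested. Among all 32851 tabulated promoters, 3.97% held TGATGNAA, 1.79% TGACGTCA and 1.59% TGACGNAA. A match describes these letters and does not show a bound site.

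Slc7a5, at chromosome 8, 121881146 to 121907686, had the highest folds of the 9 genes in every 2-DG list. Its strand and start were not in the promoter table, so sides are given by coordinate. A region inside the gene, at 121897337 to 121899729, had folds of 149, 105, 46.5 and 55.1 in 2-DG replicates 1 to 4, against 13.1 in control replicate 1 and no peak in the other control lists. Its ranks were 6, 11, 29 and 25 in 2-DG replicates 1 to 4, against 93 in control replicate 1, and its 2-DG summits were within 7 bp of each other.

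A second Slc7a5 region lay 28.5 kb below the lower-coordinate end, at 121850396 to 121852686, across the long noncoding RNA gene Gm26812. Here folds were 215, 199, 102 and 119 in 2-DG replicates 1 to 4, against 41.8, 10.6, 12.2 and 4.95 in control replicates 1 to 4. Its ranks were 2, 4, 12 and 9 in 2-DG replicates 1 to 4, against 19, 193, 152 and 1617 in control replicates 1 to 4. This was the single region of the 36 called in all 8 lists. Folds of separate lists are not on a common scale and were not tested against each other. The nearest protein-coding gene to this region was Gm42048.

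Also below Slc7a5, a weaker region 32.3 kb away had folds of 15.2, 8.89, 4.40 and 6.30 in 2-DG replicates 1 to 4 and no control peak. Another, 2.14 kb from the lower end, was called in 2-DG replicates 1 to 3 with folds of 4.95, 6.76 and 4.40. It too crosses Gm26812. The remaining 8 regions of this window were each in 1 list, 3 of them in a 2-DG list and 5 in a control list.

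Cationic amino acid transporters gave regions of unlike strength. Slc7a1 encodes the main uptake route for arginine and lysine in many cells, and Slc7a3 a related transporter found in brain.

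Slc7a1 spans chromosome 5, 148327410 to 148399904, minus strand, and had a region over its start, at 148398920 to 148400020. Folds were 28.1, 19.6, 14.7 and 13.6 in 2-DG replicates 1 to 4, and 5.09 in control replicate 1 alone of the control lists. The 2-DG summits lay 404 to 442 bp downstream of the start, and the control summit 649 bp downstream.

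A stronger Slc7a1 region lay upstream of the gene, 18.7 kb beyond that end, at 148418612 to 148419712. It had folds of 66.8, 54.8, 31.8 and 35.8 in 2-DG replicates 1 to 4 (ranks 37, 43, 48 and 48) and 4.73 in control replicate 1 (rank 1014). Its 4 2-DG summits agree to within 6 bp, the closest of all regions called in the 4 2-DG lists. Within each 2-DG list this distal region ranked above the one at the start. On the far side, 19.6 kb below the gene and inside Mtus2, a narrow region of 115 bp appeared in both treatments, with folds of 4.64, 5.69 and 6.64 in 2-DG replicates 1, 2 and 4 and of 8.06 and 5.30 in control replicates 2 and 4.

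Slc7a3, at chromosome X, 101079146 to 101090452, had 1 region in its window, at 101084917 to 101085479, near the middle of the annotated gene. Folds were 22.3, 16.0, 6.36 and 6.30 in 2-DG replicates 1 to 4, and no control list called it. The 4 percentiles were 97.8, 95.2, 84.4 and 78.6. Its highest summit lay 6.06 kb from the lower and 5.25 kb from the upper gene end, which is why it entered no gene-end count.

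Transporters of small neutral amino acids had one strong and several weaker regions. Slc1a4 encodes an exchanger of alanine, serine, cysteine and threonine, Slc1a5 a related exchanger that also takes glutamine, and Slc38a2 a sodium-coupled transporter of neutral amino acids.

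Slc1a4, at chromosome 11, 20302180 to 20332713, minus strand, had its recurrent region over the start, at 20332259 to 20333337. Folds were 41.4, 33.8, 13.2 and 14.6 in 2-DG replicates 1 to 4, against 7.27 in control replicate 1 and no peak in the other control lists. Percentiles were 95.8 or more after 2-DG, against 91.6 in control replicate 1. Summits of 2-DG replicates 1, 2 and 4 lay 50, 48 and 71 bp upstream of the start, that of 2-DG replicate 3 lay 90 bp downstream, and that of control replicate 1 lay 39 bp downstream.

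Slc38a2, at chromosome 15, 96687392 to 96699728, minus strand, had a region at 96698986 to 96699444, with 2-DG summits 533 to 571 bp downstream of the start. Folds were 17.6, 8.54, 7.34 and 7.96 in 2-DG replicates 1 to 4, and no control list called it. The first 2-DG list stood above the other 3, which were close to each other. A region 44.7 kb below the gene, at 96642035 to 96642691, had folds of 14.5, 13.9, 5.38 and 6.97 in 2-DG replicates 1 to 4, again without a control peak, and lies at an end of the neighbouring transporter gene Slc38a1. A further region, 43.4 kb upstream of Slc38a2, had folds of 13.6, 11.7 and 4.65 in 2-DG replicates 1, 2 and 4.

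Slc1a5, at chromosome 7, 16781334 to 16798274, was the member with least support. A region inside the gene, at 16784555 to 16785037, had folds of 14.5 and 5.69 in 2-DG replicates 1 and 2, percentiles 95.6 and 71.1, and no peak in the other 6 lists. A second region, 43.7 kb above the gene and near ends of Prkd2 and Strn4, was called with a fold of 4.95 in 2-DG replicate 1, the longest list. The control lists called nothing in this window.

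Slc6a9, the glycine transporter gene, at chromosome 4, 117835258 to 117869305, plus strand, had its 2 regions near the first tabulated start and no control peak in the whole window. The region at 117836368 to 117836887 had folds of 19.8, 9.25, 5.87 and 4.31 in 2-DG replicates 1 to 4, with percentiles of 97.4, 87.9, 79.3 and 39.7. Its summits lay 1230 to 1332 bp downstream of the start. The region across the start, at 117835158 to 117835745, had folds of 13.0, 10.7 and 3.65 in 2-DG replicates 1, 2 and 4, and the last of these stood at percentile 14.5 of its list.

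**Figure D2:**
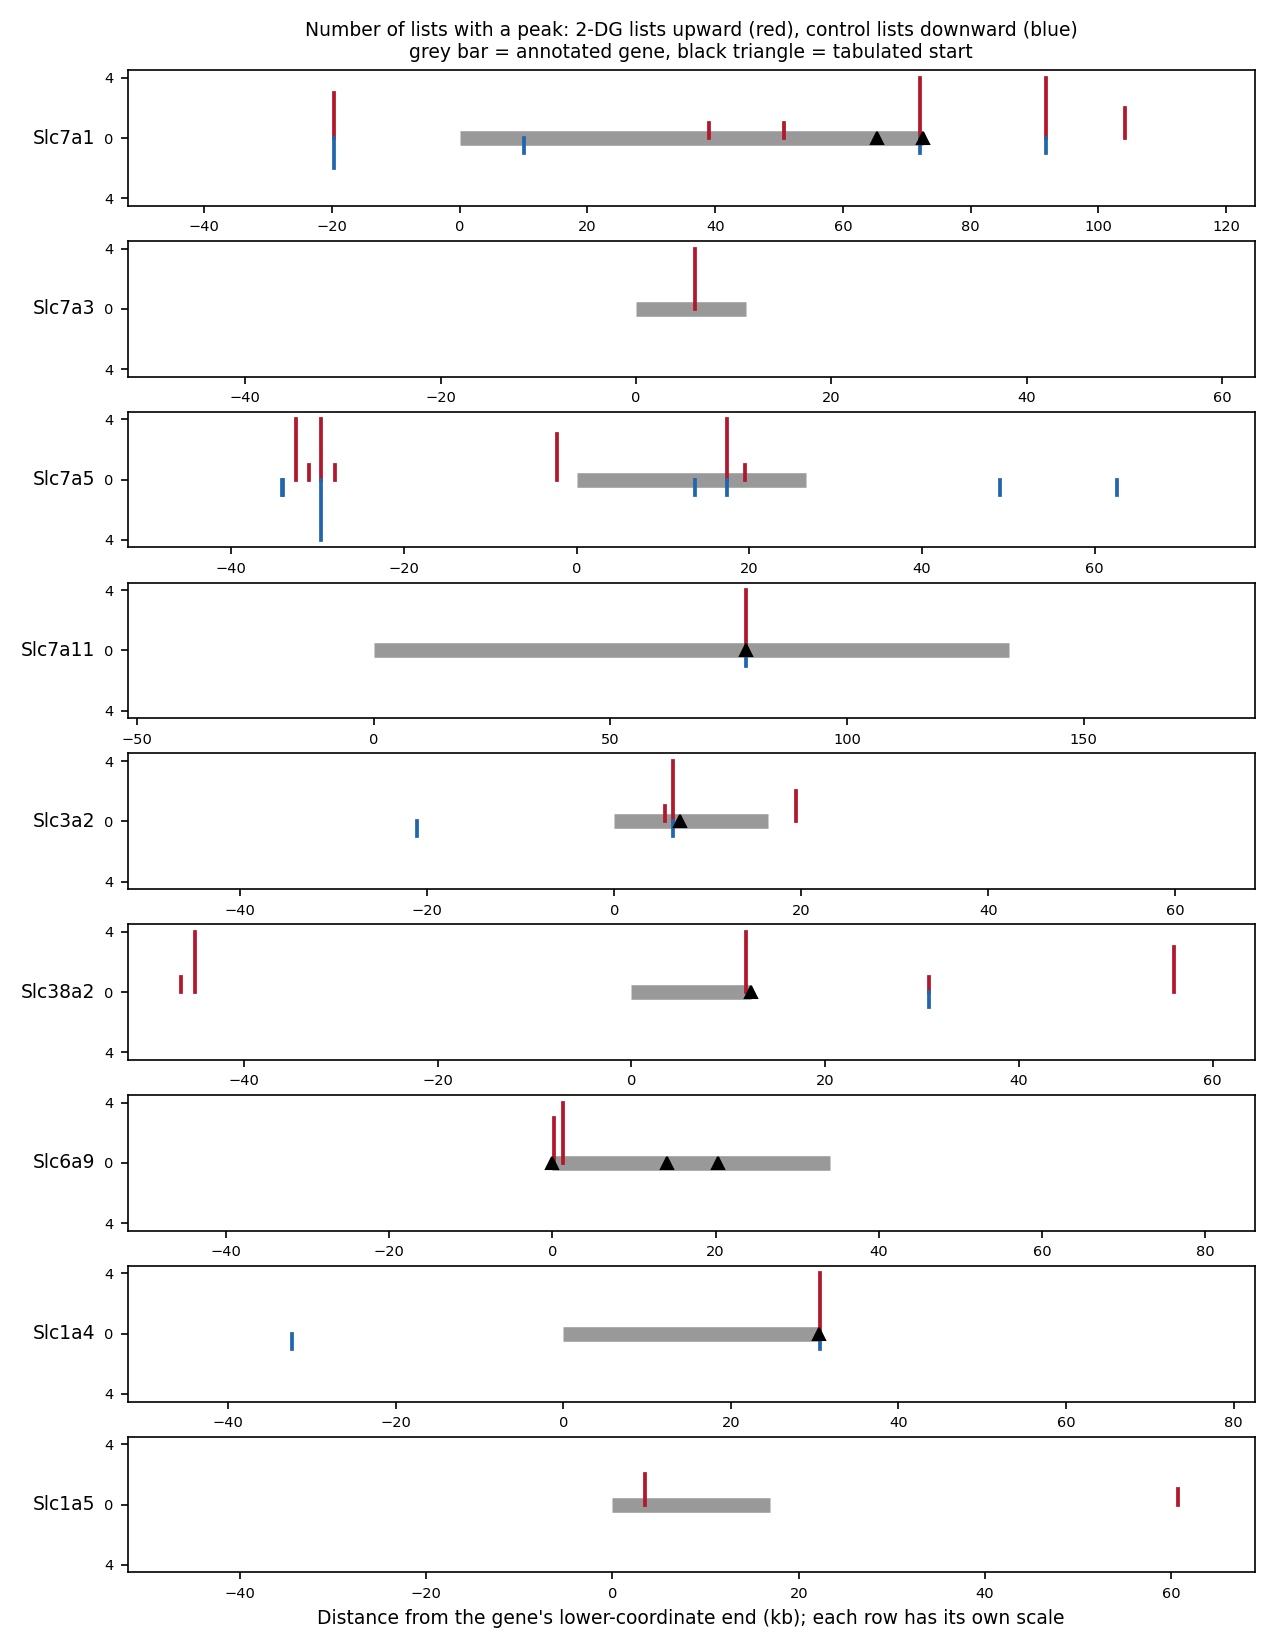
Peak regions in the window of each gene (horizontal axis, distance in kb from the lower-coordinate gene end, own scale per row); red bars rise with the number of 2-DG lists and blue bars fall with the number of control lists that called the region, up to 4 each. Of 36 regions, 16 were in at least 3 2-DG lists, and the Slc7a5 region 28.5 kb below the gene was in all 8 lists.

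By their highest fold within a list, taken over all regions of the window, the members kept much the same order. For Slc7a5 and Slc7a1 this was the distal region, 28.5 kb and 18.7 kb from the gene, in every 2-DG list. For Slc38a2 in 2-DG replicate 2 it was the region at an end of Slc38a1 (fold 13.9), above the one near its own start (8.54). Slc7a5 held position 1 and Slc1a4 position 5 in each of the 4 2-DG lists. Slc7a11 stood above Slc3a2 in all 4, while Slc7a1 held position 4 in replicates 1 and 2 and position 2 in replicates 3 and 4. Slc7a3, Slc38a2 and Slc6a9 shared positions 6 to 8 and changed places between lists. Slc1a5 held position 9 in the 2 lists that called it. At each of the 12 regions called in all 4 2-DG lists, the highest fold was in replicate 1, and the lowest was in replicate 3 at 9 and in replicate 4 at 3.

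**Figure D3:**
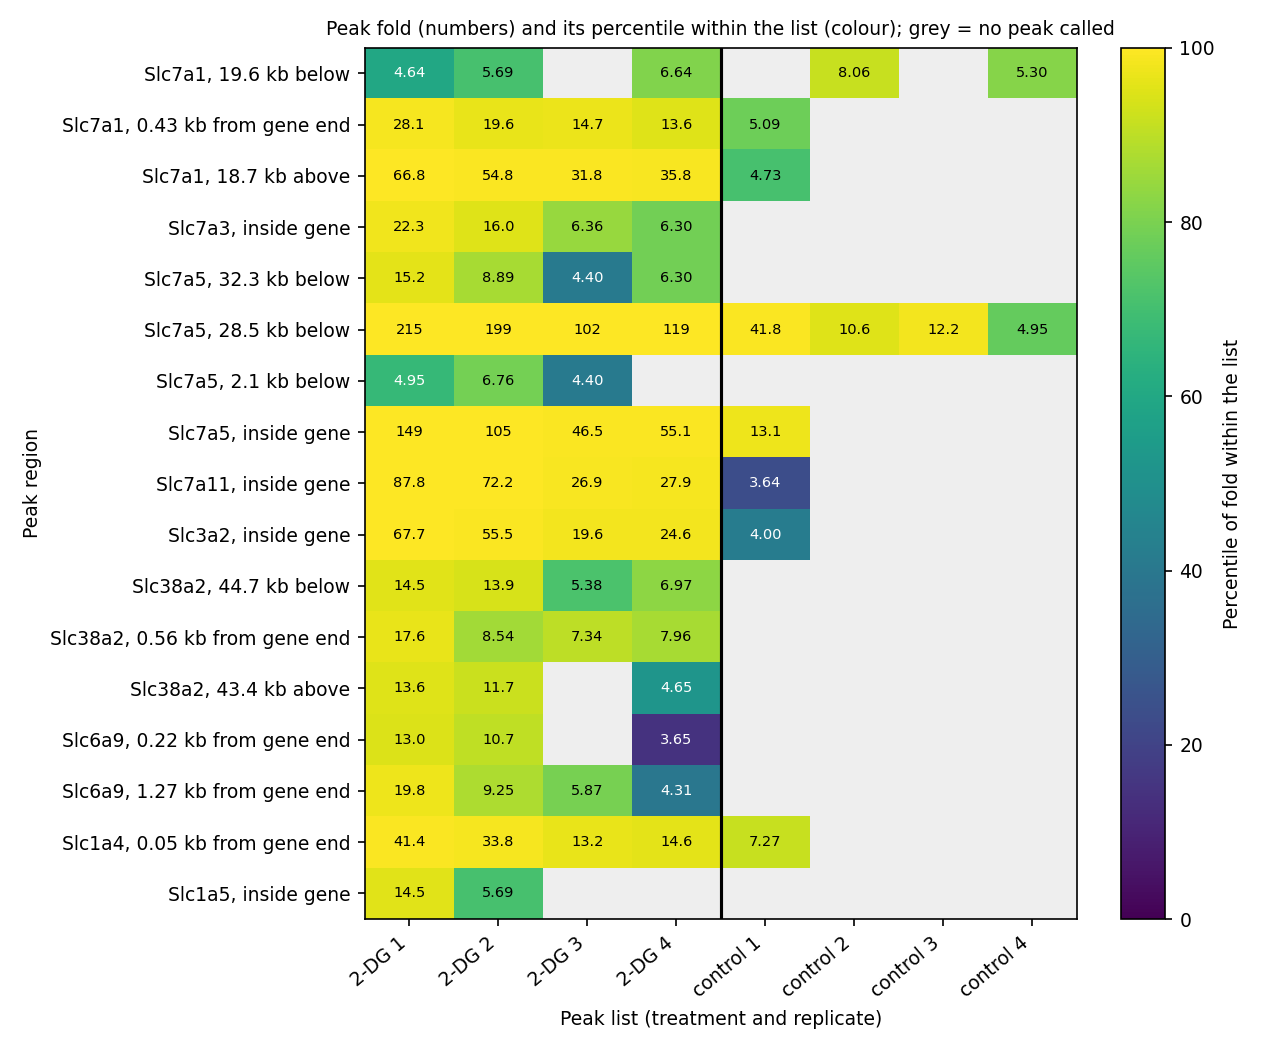
Fold of each peak (printed) and its percentile within its list (colour) for the 16 regions in at least 3 2-DG lists and the Slc1a5 region, with lists across and regions down; above and below refer to coordinates, and grey marks no called peak. Control replicate 1 holds 7 of the 16 regions and the other control lists 2, 1 and 2.

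Control replicate 1, the shortest list, stood apart from the other controls at these genes. It called 7 of the 16 recurrent regions, at 5 genes, whereas control replicates 2, 3 and 4 called 2, 1 and 2. The share of all recurrent regions that each control list called was not counted, so this may not be particular to these genes. Gene-end peaks lay at 1.51% of all genes in control replicate 1, and at 1.25%, 2.02% and 1.89% in control replicates 2 to 4. The gene-end pattern of Slc7a1 and Slc1a4, with control replicate 1, was shared by 38 other genes for each, a count that includes the other member. Of the 12 regions in all 4 2-DG lists, 6 had a peak in control replicate 1 and in no other control list, 5 had none in any control list, and 1 was in all. The 6 shared with control replicate 1 had mean 2-DG percentiles of 96.9 to 99.7, against 75.6 to 90.0 for the 5 without a control peak. Within each 2-DG list the folds of these 2 sets did not overlap. The lowest fold of the 6 was 28.1, 19.6, 13.2 and 13.6 in 2-DG replicates 1 to 4. The highest fold of the 5 was 22.3, 16.0, 7.34 and 7.96. The difference was not tested. The same comparison over all regions of the genome was not made, so it may not be particular to these genes. In control replicate 1 itself the 6 had folds of 3.64 to 13.1 and percentiles of 23.6 to 97.3. Without control replicate 1, the count of regions in at least 3 2-DG lists and no control list was 14 in place of 8, and the count of members with such a gene-end pattern was 4 in place of 2. The shares of all regions and all genes without that list were not counted.

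At the 6 regions near a tabulated start that were in all 4 2-DG lists, the 2-DG summits spread over 19 bp for Slc7a11, 25 bp for Slc3a2, 38 bp for Slc7a1, 38 bp for Slc38a2, 102 bp for Slc6a9 and 161 bp for Slc1a4. Over all regions in the windows, the spread of the 4 2-DG summits was at most 50 bp at 8 of the 12 called in all 4 lists, with or without a start nearby, and ran from 6 to 161 bp. The widest was that of Slc1a4, through 2-DG replicate 3.

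**Figure D4:**
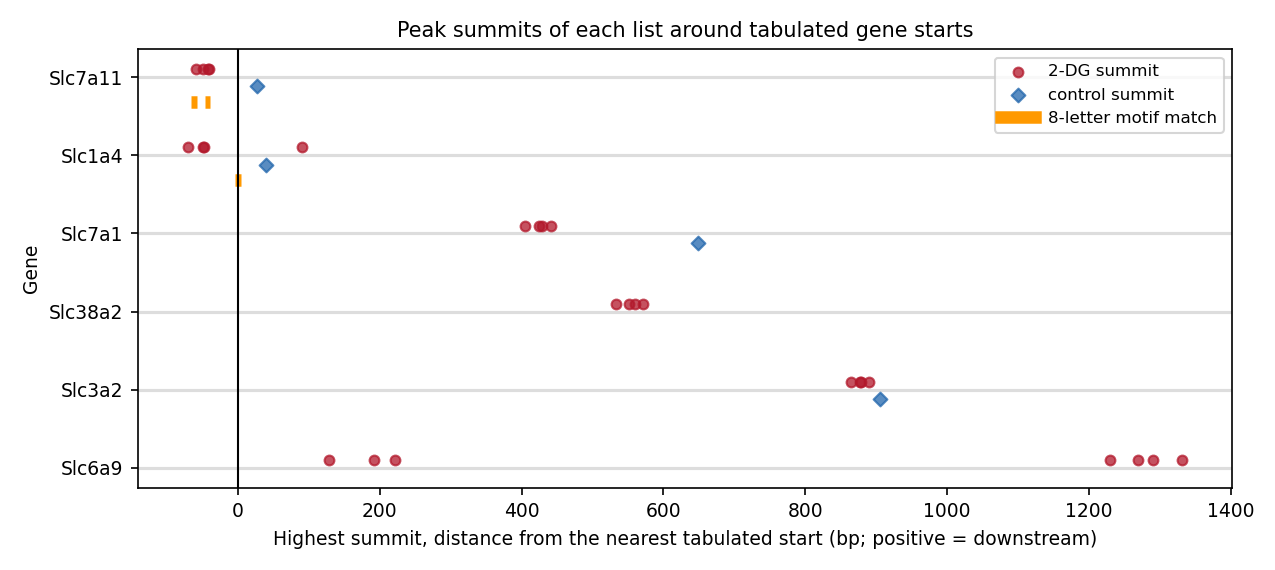
Distance in bp of each list's highest summit from the nearest tabulated start (horizontal axis, positive downstream) for 6 genes, with 2-DG lists as circles, control replicate 1 as diamonds and TGATGNAA matches as orange bars. Slc7a11 and Slc1a4 have summits within 100 bp of the start, while 2-DG summits of Slc7a1, Slc38a2 and Slc3a2 lie 404 to 890 bp downstream. Matches were searched for in the tabulated promoters alone, which do not reach those downstream summits.

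Regions called in 1 list alone were narrower and weaker. There were 16 of them in the windows, 8 in 2-DG lists (6 of these in replicate 1) and 8 in control lists. Their folds ran from 3.40 to 6.19. The other 4 regions outside the recurrent 16 were in 2 lists each, namely the Slc1a5 region, 1 upstream of Slc7a1 and 1 beyond the upper end of Slc3a2 in 2-DG lists, and 1 upstream of Slc38a2 in 2-DG replicate 4 and control replicate 4. The median width of the single-list regions was 134 bp, against 622.5 bp for the 16 recurrent regions, whose widths were measured after merging several lists.

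Per gene, the number of lists with a gene-end peak was compared by a two-sided Fisher's exact test over all 21883 genes. Slc38a2 and Slc6a9, at 4 of 4 2-DG lists and 0 of 4 control lists, had an exact p of 0.0286, below which this design cannot go, with a Benjamini-Hochberg adjusted p of 1. That pattern was shared by 123 other genes for each. Slc7a1 and Slc1a4, at 4 of 4 and 1 of 4, had an exact p of 0.143 (adjusted p = 1). For each, 38 other genes had the same pattern, with the same control list, a count that includes the other member. In all, 124 genes had an unadjusted p under 0.05 and 0 an adjusted one. The rule of at least 3 2-DG lists and no control list called 2 of the 9 members and 1.12% of all genes. With the lists of conflicting labels added by description, at least 75% of the 2-DG lists, rounded up, had to hold the peak. Under that stricter limit, and with no control list, 0 members and 1 region of the windows (in place of 8 regions) were called. Adding the lists by title, under the same limit, called 2 members and 6 regions. By description, the list titled 2-DG counted as a control, and it held the gene-end regions of Slc38a2 and Slc6a9. With consecutive title numbers as a block, 4 members and 14 regions were called, but by a looser rule. It counted pairs in which the 2-DG list alone had the peak. A control peak was thus allowed where the 2-DG list of its pair had one too.

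Other amino acid transporters of related families were counted in the same way. Of 44, 2 (4.55%) had a gene-end peak in at least 3 2-DG lists, against 1.81% of all genes. They were Slc38a1, a sodium-coupled neutral amino acid transporter, in 4 2-DG lists, and Slc1a7, a glutamate transporter, in 3. Neither had a gene-end peak in a control list. A region in at least 3 2-DG lists lay in the 50 kb window of 7 of the 44 (15.9%, beside 14.0% of all genes). A region in all 4 was found for 3 of the 44 (6.82%, beside 7.12% of all genes), namely Slc7a13, Slc7a14 and Slc38a1, named after their values were seen. Among 380 genes with Slc symbols outside the 9 members, 7 (1.84%) had a gene-end peak in at least 3 2-DG lists and no control list, beside 1.12% of all genes. They were Slc16a14, Slc38a1, Slc4a10, Slc1a7, Slc22a15, Slc25a28 and Slc2a9, in order of mean percentile, which ran from 88.9 for Slc16a14 to 59.4 for Slc2a9.

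Genes of amino acid sensing, of the mTORC1 kinase and of its regulators were a further list, named amino acid sensing for short. Of 27, 2 (7.41%, beside 1.81% of all genes) had a gene-end peak in at least 3 2-DG lists, Ddit4 and Sesn2, which both restrain mTORC1. Each had one in all 4 2-DG lists and in no control list. A region in all 4 2-DG lists lay in the window of 3 of the 27 (11.1%, beside 7.12% of all genes), and a region in at least 3 in that of 5 (18.5%, beside 14.0%).

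Lists holding known ATF4 targets outside transport were counted too. A gene-end peak in at least 3 2-DG lists, found for 1.81% of all genes, was found for 16 of 21 core stress-response genes, 5 of 15 serine, one-carbon and transsulfuration enzymes and 11 of 20 cytosolic transfer RNA synthetases. Of these, 10, 3 and 1 had no gene-end peak in any control list, a pattern found for 1.12% of all genes. Chac1, Ppp1r15b, Asns and Trib3 led the first of these lists, Psat1, Shmt2, Aldh1l2 and Phgdh the second, and Iars, Lars, Sars and Yars the third. Among these leaders Iars was also called in 4 control lists, Chac1 and Psat1 in 2, and Trib3, Aldh1l2 and Phgdh in none. With a region in all 4 2-DG lists anywhere in the 50 kb window, the counts were 8 of 9 transporters (88.9%), 15 of 21 core stress-response genes (71.4%), 8 of 15 enzymes (53.3%) and 11 of 20 synthetases (55.0%). Among all genes this share was 7.12%. The transporters and these lists hold known ATF4 targets, but not every listed gene is one: the first list includes Atf4 itself and the eIF2 kinases. They were picked with earlier results of these data known, so the shares describe them and test nothing. Of 13 neuronal markers, Tubb3 alone had a gene-end peak in at least 3 2-DG lists, and of 21 glial, vascular and progenitor markers none did.

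**Figure D5:**
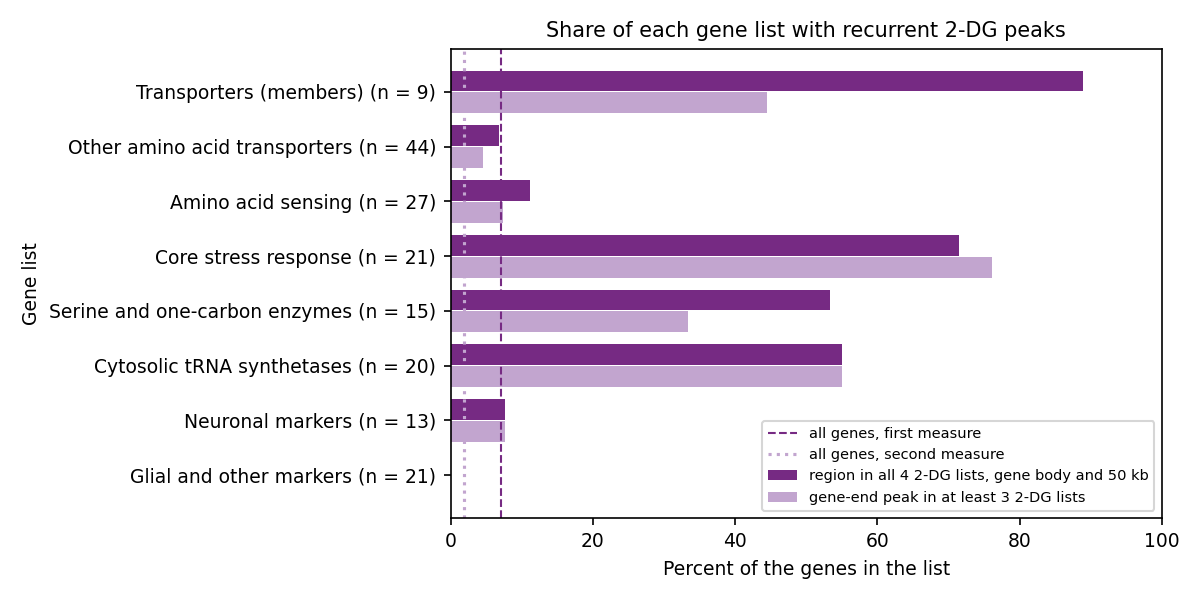
Percent of each gene list (horizontal axis) with a region in all 4 2-DG lists in the gene body and 50 kb (dark bars) or a gene-end peak in at least 3 2-DG lists (light bars); dashed and dotted lines mark all genes, at 7.12% and 1.81%. Transporters reach 88.9% by the first measure, and the other amino acid transporters stay at 6.82%.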

How the data were processed

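The deposited files are MACS2 peak lists, 1 per immunoprecipitation, called on single samples, per the peak names in the file. The build is mm10, and the submitters' processing notes list BWA, Picard, MACS2 and DiffBind without versions or roles. The authors deposited for each summit its fold (the ratio to local background), its -log10 p, its -log10 q and a score, which is the -log10 q times 10 without decimals. The 10 deposited lists end at different -log10 q values, 1.31 to 1.77. They hold no read counts.

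Of 18 samples, 10 had a list, and the others were not analysed here. In 4 samples, 2 with lists, title and description disagree on treatment, and these entered no comparison except as an alternative. Replicate numbers follow accession order and pair nothing. The design states 3 independent replicates, while 4 lists per treatment are compared, and no label ties a list to a culture, so p-values measure only the spread between lists, which may be technical. The labels' extraction protocol is one for RNA.

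Rows sharing an interval were joined into 1 peak at the summit of highest fold. Regions are merged intervals of the 8 lists, overlap is at least 1 bp, and a region is at a gene end when it touches 2000 bp around either end. Genes and promoters came from RefSeq tables of GRCm38.p6, without exons. Of 8 gene lists, all names matched except 1 of 28 in the amino acid sensing list. Fisher's exact test used SciPy 1.17.1 in Python 3.11.15, and the counting code was tested on simulated lists.

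Named genes were the 9 members, up to 4 genes of each other list with a gene-end peak in at least 3 2-DG lists, and up to 10 Slc genes with that and no control peak, by mean percentile. Members and lists were chosen with earlier results of these data known. Alternatives were other windows, flanks, overlap rules, limits on -log10 q or fold, equal numbers of peaks per list, leaving out each list, adding the lists with conflicting labels and a block of consecutive title numbers. Tabulated starts were added after the peak positions were seen.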

Additional observations from a re-analysis of the deposited data

Results flagged for a closer look

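An outlying list was looked for in 32 sets of 4 values, and 3 sets had one, where a rate of 1 in 20 would give 1.6. Among control lists, replicate 1 stood apart with gene-end peaks at 2 members and with peaks near tabulated starts at 4 members, while the other control lists had 0 of either. A count of 0 in all lists but one always passes this limit. At the Slc38a2 region near the start, 2-DG replicate 1 stood apart with a fold of 17.6, against 7.34 to 8.54 in the other 2-DG lists. That list also had the most peaks (15240), and the part of list length in its fold was not tested.

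A list whose title says 2-DG but whose description says control held 13 of the 16 recurrent regions, at 8 members, and was used in no comparison. The highest control list held 7. Its counterpart, with a control title and a 2-DG description, held 2.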

How the results depend on the processing

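The main values were a difference (2-DG minus control lists) of 3.5 members per list with a gene-end peak and of 5 members with any peak in the 50 kb window, 2 members with a gene-end peak in at least 3 2-DG lists and no control list, and 8 regions of that class. Adding the lists with conflicting labels by description gave 2, 3, 0 and 1, and adding them by title gave 3.6, 5, 2 and 6. With a list added, at least 75% of the 2-DG lists, rounded up, had to hold the peak, so 3 lists no longer sufficed. The list counted as a control by description also held the gene-end regions of Slc38a2 and Slc6a9. The gene-end difference was 5.75 with ends of 5000 bp and 5 around tabulated starts. The window difference was 6.25 at -log10 q of at least 5, 6.25 at fold of at least 5 and 6 with flanks of 20 kb, which held 5 regions. With consecutive title numbers as a replicate block, counting pairs in which the 2-DG list alone had the peak, 4 members and 14 regions were called, and the differences were the same by construction. Leaving out each list gave 3.33 to 4, 4.5 to 5.5, 2 to 4 members and 5 to 14 regions. The count of 14 and that of 4 came without control replicate 1, and 5 regions remained without 2-DG replicate 1 or without 2-DG replicate 2, since each region then had to be in all 3 other 2-DG lists. The cause of the other shifts was not tested. Of 443 further values for single genes and regions, 432 kept their direction or stayed at 0, 11 moved to or from 0 and none reversed. End windows do not enter the counts over the 50 kb window. Depth is unknown, so no limit of detection can be set.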

Other observations

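In the list whose title says 2-DG but whose description says control, the peak inside Slc7a5 had a fold of 45.5 (rank 30 of 7847) and the Slc7a5 region 28.5 kb below the gene a fold of 73.3 (rank 14). The Slc7a1 region upstream of the gene had a fold of 29.9, Slc3a2 22.9, Slc7a11 20.8, Slc1a4 14.2 and the Slc7a1 start 11.5. The weakest was the Slc38a2 region near the start, at 3.47. In the list with a control title and a 2-DG description, the Slc7a5 region below the gene had a fold of 5.18 and the Slc7a1 region inside Mtus2 5.51, and no other recurrent region was called.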
